A study of Mus musculus with 6 samples.

Results

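The genes described here are 10 mouse genes of axon guidance: the Slit ligands *Slit2* and *Slit3*, the netrins *Ntn1* and *Ntn4*, the Slit receptors *Robo1* and *Robo2*, the netrin receptors *Unc5b*, *Unc5c* and *Neo1*, and the leucine-rich repeat protein gene *Lrrn1*. They were found by symbol among the 46078 genes of the deposited count table, and all 10 were present. They were chosen by their counts in the comparison reported here, so their levels and fold changes are a description and carry no test. RNA was sequenced from C2C12 cells, an immortalised mouse myoblast line that exits the cell cycle and fuses into myotubes when serum is withdrawn. The 3 KO libraries came from cells in which *Hnrnpa2b1*, encoding an RNA-binding protein that acts in splicing, had been disrupted with CRISPR-Cas9, and the 3 WT libraries from WT clones of the same line. Every library was made after 2 days of differentiation by serum withdrawal with ITS (insulin, transferrin and selenium). The methods describe separate KO and WT clones picked after puromycin selection, but the labels do not say which clone or culture gave which library, so the spread between libraries may be clonal, cultural or technical, and p-values measure only that spread.

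Slits are secreted proteins that bind Robo receptors through leucine-rich repeats and repel growing axons and migrating cells. Netrins are secreted laminin-related proteins that attract through DCC or neogenin and repel through UNC5 receptors. Both pathways act on the actin cytoskeleton through small GTPases. Outside the nervous system Slits and Robos are known to guide muscle precursors and tendon attachment in flies, and netrin with neogenin has been linked to myoblast fusion in culture.

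The libraries held 33605258 to 40558740 counts on genes. *Hnrnpa2b1* itself stood at 159, 195 and 249 CPM (counts scaled to a library size adjusted by TMM, the trimmed mean of M values) in KO1, KO2 and KO3 and at 225, 229 and 252 CPM in WT1, WT2 and WT3. These ranges overlapped, and the RNA level does not tell the genotypes apart. The paper's methods state that the knockout was checked in the clones at the protein level, by immunofluorescence and Western blotting. Of 15 muscle markers all 15 were measured, and their summed level was 26511, 10672 and 9532 CPM in KO1 to KO3 against 18915 to 25253 CPM in WT, so that the sum was near WT in KO1 and lower in KO2 and KO3. Single markers did not all follow this sum, which abundant genes carry. *Myod1* read 171, 270 and 194 CPM in KO and 96 to 126 CPM in WT, *Myog* differed by 0.06 on the log2 scale, and *Myl1* was at 634 CPM in KO1 and 1125 to 2023 CPM in WT. Of these 15, *Tnnc2* was below 1 CPM in every library. In TPM, a level scaled to transcript length and to depth, *Tnnc2* was listed at 14 to 78.9 in KO and 23.1 to 63.5 in WT. Its low CPM is therefore no sign that it was absent, and the cause of this gap was not tested. Markers of other cells were scarce. Summed over each list, 7 endothelial markers reached 0.308 to 0.806 CPM in KO and 1.25 to 2.16 CPM in WT, 8 neuronal markers 1.32 to 2.83 and 1.39 to 2.1 CPM, 6 Schwann and glial markers 1.79 to 2.71 and 0.926 to 1.67 CPM, 7 immune markers 2.89 to 4.31 and 1.95 to 2.55 CPM, and 4 adipocyte markers 0 to 0.0916 and 0.0289 to 0.0539 CPM. The immune gene *Cd3e* and the adipocyte gene *Lep* had 0 counts in all libraries, but the immune gene *Cd68* had 61 to 124 counts. *Lyz2*, a further immune gene, had 22 or 23 counts in KO and 0 to 6 in WT. The edgeR test given below called 1 of 2 tested endothelial and 1 of 4 neuronal markers lower in KO. It called 1 of 2 glial and 1 of 2 immune markers higher, where 22.7% of all tested genes were called. The part of any of these other cells in the results was not tested.

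*Robo1* encodes a transmembrane receptor for Slits. Its gene lies at chr16:72663149-73046095 on the plus strand, in the deposited coordinates, which fit GRCm38. It had 134, 1 and 3 counts in KO1, KO2 and KO3, against 1869, 1777 and 2083 counts in WT1, WT2 and WT3. In CPM these were 3.75, 0.0229 and 0.0732 in KO and 54.1, 54.2 and 56.1 in WT. The 3 WT libraries were nearly alike, every KO library lay below all of them, and KO2 and KO3 were nearly empty of *Robo1* reads. Compared with the WT libraries together, KO1 held 6.84% of the WT level (95% exact binomial interval 5.72 to 8.12), KO2 0.0418% (0.00106 to 0.233) and KO3 0.134% (0.0275 to 0.391). These intervals cover counting error only. The fitted difference was -5.46 ± 1.20 (log2, KO minus WT, SE, n = 3 and 3), a 44.1-fold lower level in KO. Without KO1 the fitted difference was -10.09 on the log2 scale, a size that rests on the 1 and 3 counts of KO2 and KO3 and is not resolved at this depth.

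*Robo2*, a second Slit receptor, lies on the same chromosome at chr16:73892306-74411825 on the minus strand. Its counts were 1103, 12 and 46 in KO1, KO2 and KO3, against 3165, 2970 and 4818 in WT1, WT2 and WT3. In CPM the KO libraries read 30.9, 0.275 and 1.12 and the WT libraries 91.5, 90.5 and 130. The groups did not overlap, and the order KO1, KO3, KO2 was the one seen for *Robo1*. KO1 held 29.4% of the WT level (27.7 to 31.3), KO3 1.07% (0.784 to 1.43) and KO2 0.262% (0.135 to 0.458). The fitted difference was -3.28 ± 1.31 on the log2 scale, and -7.23 without KO1.

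*Lrrn1* encodes a transmembrane protein with leucine-rich repeats, related to the repeats of Slits, and is known as a boundary and neuronal gene. It is at chr6:107529726-107570228, plus strand. It was measured at 47, 1 and 0 counts in the KO libraries and at 163, 250 and 160 counts in WT1 to WT3, or 1.32, 0.0229 and 0 CPM against 4.71, 7.62 and 4.31 CPM. All KO libraries lay below all WT libraries, and KO1 was the highest of the KO libraries again, at 24% of the WT level (17.4 to 32.3). KO2 stood at 0.418% (0.0106 to 2.34), and the absence of counts in KO3 allows up to 1.34% at a limit of 3 counts, or 1.65% by the exact interval. The fitted difference was -3.68 ± 1.21 on the log2 scale. Without KO1 it was -8.52, a size that rests on 1 and 0 counts, depends on the fit and is not resolved at this depth, where 3 counts in KO3 would be 74.9-fold below WT.

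KO1 was thus the highest KO library for *Robo1*, *Robo2* and *Lrrn1*, and it was also the KO library with the high muscle marker sum given above. The part of the muscle genes in these values was not tested. In bulk RNA, fewer cells that express a gene and less of its RNA per cell cannot be told apart.

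**Figure D1:**
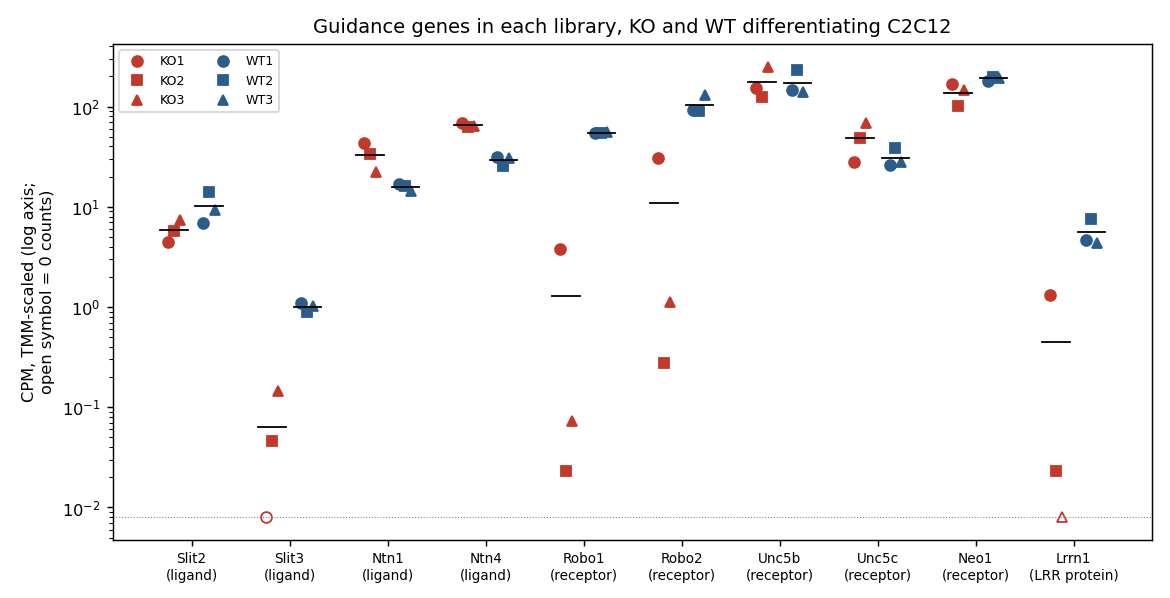
CPM of the 10 guidance genes in each of the 3 KO (red) and 3 WT (blue) libraries on a log axis, with black lines at the group means and open symbols for 0 counts. *Robo1*, *Robo2*, *Lrrn1*, *Slit3* and, by a smaller margin, *Neo1* lie below WT in every KO library, while *Ntn1* and *Ntn4* lie above it.

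The promoters of these 3 genes are shown because the genes were low in the same libraries. Each line holds the 250 bases before the RefSeq start (GRCm38.p6) that coincides with the start of the deposited gene, 5′ to 3′ on the gene's strand, with E-boxes in capitals. An E-box is the hexamer bound by basic helix-loop-helix factors such as MyoD and was searched as CANNTG, which reads the same on both strands. The windows are chr16:72662899-72663148 (plus) for *Robo1*, chr16:74411826-74412075 (minus) for *Robo2*, and chr6:107529476-107529725 (plus) for *Lrrn1*. Both Robo genes have other annotated starts further upstream, *Robo2* in RefSeq and *Robo1* in GENCODE, whose windows are not shown.
Robo1: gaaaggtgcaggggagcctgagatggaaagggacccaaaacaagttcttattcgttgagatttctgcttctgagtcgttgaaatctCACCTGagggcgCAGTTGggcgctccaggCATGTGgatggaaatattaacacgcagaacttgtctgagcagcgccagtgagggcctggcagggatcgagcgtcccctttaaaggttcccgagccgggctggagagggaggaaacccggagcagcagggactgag
Robo2: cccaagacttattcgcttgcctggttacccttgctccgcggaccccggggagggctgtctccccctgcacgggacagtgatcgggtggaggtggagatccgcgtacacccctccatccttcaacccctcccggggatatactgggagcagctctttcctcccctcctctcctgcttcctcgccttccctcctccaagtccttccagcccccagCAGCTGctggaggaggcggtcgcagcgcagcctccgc
Lrrn1: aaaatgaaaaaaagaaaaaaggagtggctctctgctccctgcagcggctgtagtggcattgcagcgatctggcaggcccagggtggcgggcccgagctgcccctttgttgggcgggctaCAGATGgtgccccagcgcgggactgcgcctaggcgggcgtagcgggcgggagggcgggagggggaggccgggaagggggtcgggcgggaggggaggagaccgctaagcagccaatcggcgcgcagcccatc
The *Robo1* window held 3 E-boxes, and the *Robo2* and *Lrrn1* windows 1 each. Of 32851 RefSeq promoter windows of this length, 66.2% held at least 1. The *Robo2* E-box was CAGCTG, which 13% of all windows held. The GC box GGGCGG, searched on both strands, occurred 4 times in the *Lrrn1* window and in neither Robo window, and 32.7% of all windows held it. These matches describe letters and not binding.

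The Slit ligands, secreted and cleaved proteins, were scarce. *Slit3*, at chr11:35121224-35708507 (plus), had 0, 2 and 6 counts in KO1, KO2 and KO3, against 38, 29 and 38 counts in WT1, WT2 and WT3, or 0, 0.0458 and 0.146 CPM against 1.1, 0.884 and 1.02 CPM. Every KO library lay below every WT library, but here KO1 was the lowest and not the highest. The absence of counts in KO1 allows up to 8.35% of the WT level at a limit of 3 counts, or 10.5% by the exact interval, and KO3 stood at 14.6% (5.23 to 32.8). The fitted difference was -3.86 ± 0.72 on the log2 scale, for a gene that passed the filter on low counts only through its WT libraries. Without KO3 the fitted difference was -5.15, a size that rests on the 0 and 2 counts of KO1 and KO2 and is not resolved at this depth. *Slit2*, encoding a further Slit, at chr5:47983138-48307733 (plus), read 4.42, 5.73 and 7.42 CPM in KO1, KO2 and KO3, against 6.97, 14.2 and 9.22 CPM in WT1, WT2 and WT3. Its groups overlapped, since KO3 lay above WT1, and the difference of -0.79 ± 0.31 on the log2 scale (1.73-fold lower) was smaller than the 2.04-fold range among the WT libraries.

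The netrins went the other way. *Ntn4* encodes netrin 4, a basement membrane netrin that binds laminins, and lies at chr10:93640681-93747207 (plus). It read 68.1, 62.9 and 63.6 CPM in KO1, KO2 and KO3, against 31.2, 25.6 and 30.5 CPM in WT1, WT2 and WT3. The KO libraries were close to each other and all above WT, with a fitted difference of 1.16 ± 0.13 on the log2 scale (2.23-fold higher). *Ntn1* encodes netrin 1, the founding guidance netrin, at chr11:68209364-68400823 (minus). It read 43.1, 33.7 and 22.4 CPM in KO1, KO2 and KO3, against 16.7, 16.2 and 14.4 CPM in WT1, WT2 and WT3. The groups did not overlap, and KO spread more widely than WT. Its fitted difference was 1.07 ± 0.23 on the log2 scale (2.1-fold higher).

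The netrin receptors differed less. *Unc5b*, a receptor for repulsion and a dependence receptor, lies at chr10:60762610-60831581 (minus) and read 153, 126 and 251 CPM in KO1, KO2 and KO3, against 148, 231 and 141 CPM in WT1, WT2 and WT3. The groups overlapped throughout, with a fitted difference of 0.02 ± 0.29 on the log2 scale whose sign changed with the processing. *Unc5c*, a related repulsive receptor gene, at chr3:141465216-141834924 (plus), read 28.2, 48.9 and 69.1 CPM in KO1, KO2 and KO3, against 26.3, 38.4 and 27.8 CPM in WT1, WT2 and WT3. KO2 and KO3 lay above all WT libraries and KO1 among them, and the difference was 0.66 ± 0.31 on the log2 scale, or 0.93 without KO1. *Neo1* encodes neogenin, a receptor for netrins and for repulsive guidance molecules, at chr9:58874679-59036441 (minus). It read 168, 102 and 145 CPM in KO1, KO2 and KO3, against 178, 199 and 195 CPM in WT1, WT2 and WT3. All KO libraries lay below WT by a modest margin, with a difference of -0.47 ± 0.19 on the log2 scale. Among the exons of the reference annotation, only those of *Unc5c* overlapped another gene, an opposite-strand gene with at most 5 counts in a library.

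Over the whole table, edgeR's quasi-likelihood test (Benjamini-Hochberg adjusted p under 0.05) called 3361 of 14828 tested genes, or 22.7%, with 12.1% of the tested genes higher and 10.6% lower in KO. All 10 guidance genes passed the filter on low counts. *Robo1*, *Lrrn1* and *Slit3* passed it only through their WT libraries, since KO2 and KO3 held at most 6 counts of each. Their fits and calls carry this limit. Among them 4 were called, *Ntn1* and *Ntn4* higher and *Robo1* and *Slit3* lower. KO and WT libraries did not overlap in CPM for 7 of the 10, 2 higher and 5 lower, against 44.3% of all tested genes. Since the genes were selected on this comparison, nothing is read from these counts. The median fitted difference was -0.63 over the 10 genes and 0.03 over all tested genes on the log2 scale. The count of called guidance genes was 8 without KO1, 1 without WT1 (*Ntn4*) and 2 without WT3 (*Ntn4* and *Slit3*).

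**Figure D2:**
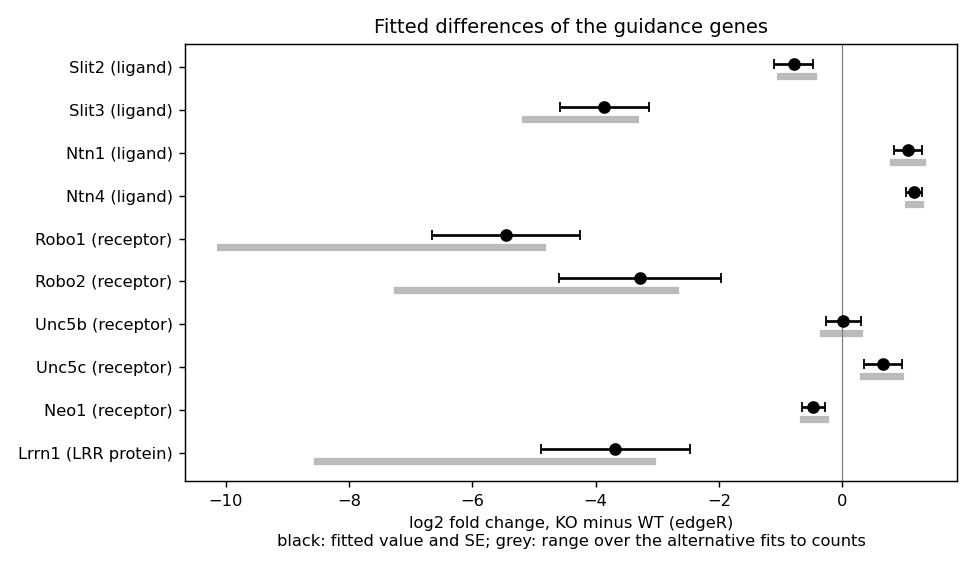
Fitted log2 fold change (KO minus WT) of the 10 guidance genes from edgeR, as points with SE (n = 3 and 3), above grey bars for the range over the alternative fits to counts (up to 12 a gene, the TPM fit left out because of its other scale). *Ntn4* has the narrowest range, 1.06 to 1.27, and that of *Robo1* runs from -10.09, the fit without KO1, to -4.87.

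Levels can be compared between genes per transcript length, as TPM (a level scaled to transcript length and to depth). In WT, *Unc5b* (20.4 ± 6.73 TPM, SD, n = 3) and *Neo1* (17.6 ± 1.38 TPM) were the highest and did not differ beyond their spread. They were followed by *Robo2* (11.9 ± 2.02 TPM), then by *Ntn4* (5.49 ± 0.48 TPM) and *Robo1* (4.89 ± 0.167 TPM), whose ranges met. *Unc5c* (2.55 ± 0.495 TPM), *Ntn1* (1.83 ± 0.213 TPM), *Lrrn1* (1.01 ± 0.368 TPM) and *Slit2* (0.825 ± 0.292 TPM) came next, the last of these overlapping in range with *Lrrn1*, and *Slit3* was lowest at 0.128 ± 0.0101 TPM. In KO the top was again *Unc5b* (21.1 ± 10.5 TPM) with *Neo1* (12.7 ± 3.31 TPM), now joined by *Ntn4* (12.3 ± 1.31 TPM), and the range of *Neo1* overlapped both others. *Unc5c* (3.88 ± 1.94 TPM) and *Ntn1* (3.81 ± 0.813 TPM) followed, overlapping each other. *Robo2* was at rank 3 by its mean in WT and rank 6 in KO, a rank that rests on KO1, since in KO2 and KO3 it lay below *Slit2*. It read 3.23, 0.0169 and 0.127 TPM in KO1 to KO3. *Robo1* was at 0.309 TPM in KO1 and listed at 0 in KO2 and KO3, and *Lrrn1* at 0.206 TPM in KO1 and listed at 0 in KO2 and KO3.

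Summed per class, *Robo1* and *Robo2* together made 15.6 to 18.9 TPM in WT and 3.54, 0.0169 and 0.127 TPM in KO1 to KO3. In WT *Robo2* made up 67.7 to 75.1% of this sum, and in KO1 91.3%. *Slit2* and *Slit3* together made 0.333 to 0.67 TPM in KO and 0.776 to 1.28 TPM in WT. The netrins together made 15.2 to 16.8 TPM in KO and 7.02 to 7.9 TPM in WT, with *Ntn4* at 71.7 to 82.1% of them in KO and 71.7 to 77.4% in WT. The netrin receptors together made 26.5 to 54.4 TPM in KO and 34.5 to 50.3 TPM in WT. In these cells the sums of the Slit receptors and of the Slits were thus lower and that of the netrins higher in every KO library than in every WT library, while the netrin receptor sums overlapped. In the TPM, limma on log2(TPM + 1) called 20.2% of 11691 genes, and 4 of the 7 guidance genes that passed its filter. On that scale, which understates low genes, the difference was -2.43 for *Robo1*, -2.91 for *Robo2*, 0.75 for *Ntn1* and 1.03 for *Ntn4*.

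**Figure D3:**
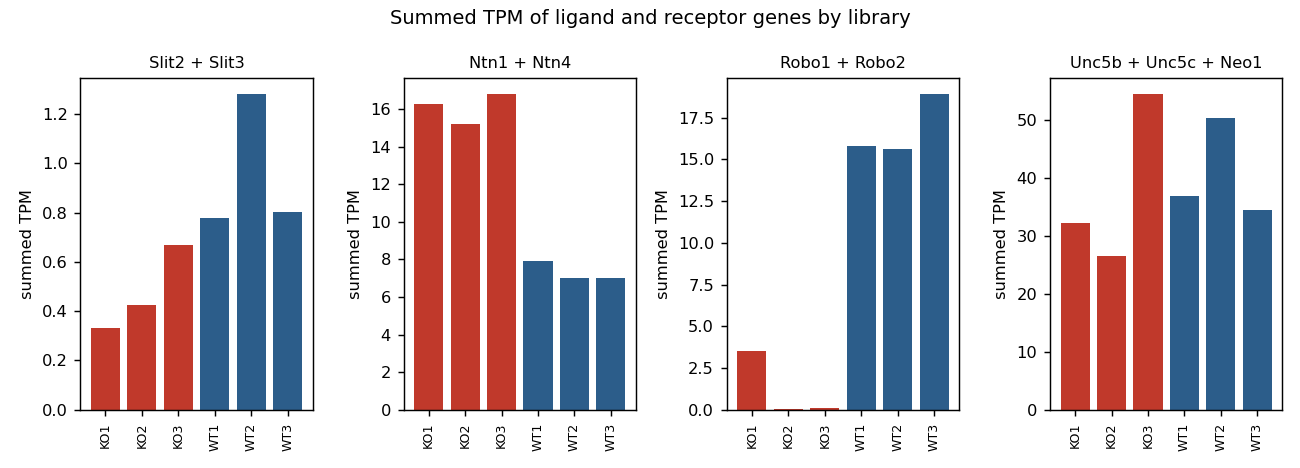
Summed TPM of the Slit genes (*Slit2*, *Slit3*), netrin genes (*Ntn1*, *Ntn4*), Robo receptor genes (*Robo1*, *Robo2*) and netrin receptor genes (*Unc5b*, *Unc5c*, *Neo1*). Bars are the KO (red) and WT (blue) libraries, on axes that start at 0. The Robo sum is 15.6 to 18.9 TPM in WT and at most 3.54 TPM in KO, and the netrin sum is 7.02 to 7.9 TPM in WT and 15.2 to 16.8 TPM in KO.

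The same fit was read for 4 lists of other pathway genes, in which 11 of 71 tested genes were higher and 10 lower in KO, where 22.7% of all tested genes were called and the median of all tested genes was 0.03 on the log2 scale. Of 19 further Slit, Robo, netrin, UNC5, DCC, Lrrn and Rgm family genes, 18 were found and 7 passed the filter, and none of the other 11 had more than 26 counts in a library. *Robo4*, the endothelial Robo, had 0 counts in all 6 libraries, and the netrin receptor gene *Dcc* at most 0.0732 CPM. In the edgeR test 1 of the 7 was lower in KO and none higher. It was *Rgmb*, a membrane-anchored ligand of neogenin, at 24.6, 31.2 and 17 CPM in KO1, KO2 and KO3, against 49.7, 38.1 and 60 CPM in WT1, WT2 and WT3 (log2 difference -1.02 ± 0.25, edgeR adjusted p = 0.0258). Its relative *Rgma* stood at 12 to 17 CPM in KO and 16.3 to 19.7 CPM in WT (-0.24 ± 0.18, edgeR adjusted p = 0.345). *Hjv*, a further gene of the Rgm family, read 64.2 to 179 CPM in KO and 75.6 to 140 CPM in WT (-0.04 ± 0.39, edgeR adjusted p = 0.944). The median of the 7 was -0.52. *Rgmb* did not pass without KO3, WT1 or WT3, with adjusted p of 0.0579, 0.0927 and 0.0871. With all libraries it did not pass with a replicate block (-1.04, edgeR adjusted p = 0.058).

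Of 16 genes of co-receptors and binding partners 14 were tested, and 4 were higher, 3 lower and 7 not past the test in KO, where 22.7% of all tested genes were called. Their median difference was -0.22. *Sdc3*, encoding a syndecan, a heparan sulphate proteoglycan of a family that binds Slits, read 7.56 to 10.9 CPM in WT and rose to 43.5, 129 and 164 CPM in KO1 to KO3 (3.64 ± 0.47, edgeR adjusted p = 0.00302). *Sdc1*, a further syndecan gene, read 111 to 116 CPM in WT and rose to 329 to 395 CPM in KO (1.69 ± 0.13, edgeR adjusted p = 0.00064). *Eva1c*, encoding a Slit-binding membrane protein, read 2.98 to 3.5 CPM in WT and rose to 6.32 to 9.39 CPM in KO (1.31 ± 0.23, edgeR adjusted p = 0.00817). *Sdc4*, named after its value was seen, also rose (0.92 ± 0.18, edgeR adjusted p = 0.0124), and *Sdc2* did not pass (0.65 ± 0.24, edgeR adjusted p = 0.0827). The call of *Sdc4* was lost without WT1 and without WT3.

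Of the 3 partners that fell, *Flrt1* encodes a leucine-rich repeat protein of a family that binds UNC5 and Robo receptors and read 1.12 to 3.23 CPM in KO and 3.33 to 8.62 CPM in WT (-1.59 ± 0.47, edgeR adjusted p = 0.0468). *Adora2b*, an adenosine receptor gene also described as a netrin 1 partner, read 19.1 to 21.2 CPM in WT and fell to 5.88 to 13 CPM in KO (-1.20 ± 0.28, edgeR adjusted p = 0.0223). *Mcam*, encoding an adhesion protein described as a netrin 1 receptor, read 4.97 to 6.19 CPM in WT and fell to 2.13 to 2.66 CPM in KO (-1.18 ± 0.23, edgeR adjusted p = 0.0119). The neogenin-associated co-receptors of myoblasts did not pass: *Cdon* differed by -0.50 ± 0.31 and *Boc* by -0.52 ± 0.30 on the log2 scale (edgeR adjusted p = 0.268 and 0.238). The count of 7 was 2 without WT1 and 4 without WT3, and *Flrt1* did not pass in 5 of the 6 fits that left out a library, the exception being the fit without KO2, with a highest adjusted p of 0.148. With all libraries it did not pass under scaling by library totals alone (-1.45, edgeR adjusted p = 0.0631). *Adora2b* did not pass without WT1 or WT3 (0.0875 and 0.0695), and *Eva1c* and *Mcam* did not pass without WT1 (0.0519 and 0.0515).

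Of 26 signalling genes downstream of Robo receptors, all tested, 2 were higher and 2 lower in KO, where 22.7% of all tested genes were called, with a median difference of 0.07. *Cap1*, encoding a cyclase-associated protein that turns over actin filaments, read 138 to 180 CPM in WT and rose to 258, 472 and 479 CPM in KO1 to KO3 (1.38 ± 0.25, edgeR adjusted p = 0.0100). *Pak1*, a kinase gene activated by Rac and Cdc42, rose by 0.53 ± 0.14 (edgeR adjusted p = 0.0325). *Clasp2*, encoding a microtubule plus-end protein, read 39.5 to 42.8 CPM in WT and fell to 22.6 to 28 CPM in KO (-0.68 ± 0.13, edgeR adjusted p = 0.0120). *Enah*, an actin filament elongation gene of the Ena/VASP family, differed by -0.58 ± 0.15 (edgeR adjusted p = 0.0301). The Slit-Robo GTPase-activating protein genes *Srgap1*, *Srgap2* and *Srgap3* differed by 0.07, -0.34 and 0.24 and did not pass. The count of 4 was 2 without KO3 or without WT2 and 0 without WT1 or WT3, where 5 and 6 genes had an unadjusted p under 0.05 in edgeR. In the fits that left out a library the adjusted p reached 0.0575 for *Cap1*, 0.136 for *Pak1*, 0.0632 for *Clasp2* and 0.0878 for *Enah*. With all libraries DESeq2 called 6 genes of the list and limma on TPM 4, *Pak1* not among them (adjusted p = 0.0982). With all libraries *Pak1* and *Enah* also did not pass with a replicate block (edgeR adjusted p = 0.0717 and 0.0647), nor *Enah* with scaling by library totals alone (0.071).

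Downstream of netrin receptors, 24 of 26 genes were tested, 5 were higher and 4 lower in KO, where 12.1% of all tested genes were called higher and 10.6% lower. The median difference was 0.18. *Tiam1*, encoding a Rac exchange factor, read 4.14 to 8.14 CPM in WT and rose to 39.3, 22.4 and 53 CPM in KO1 to KO3 (2.76 ± 0.38, edgeR adjusted p = 0.00393). *Ablim1*, an actin-binding LIM protein gene, read 124 to 180 CPM in WT and rose to 312 to 393 CPM in KO (1.24 ± 0.18, edgeR adjusted p = 0.00467). Its relative *Ablim3* read 101 to 130 CPM in WT and fell to 65.7, 17 and 17 CPM in KO1 to KO3 (-1.75 ± 0.51, edgeR adjusted p = 0.0438). Without KO1 the difference of *Ablim3* was -2.72. *Siah1a* and *Siah2*, genes of related ubiquitin ligases that act on DCC, went opposite ways. *Siah1a* rose by 1.21 ± 0.14 (edgeR adjusted p = 0.00227) and *Siah2* fell, with a difference of -0.68 ± 0.15 (edgeR adjusted p = 0.0183). *Fyn*, a Src family kinase gene, read 87.3 to 130 CPM in KO and 163 to 194 CPM in WT (-0.72 ± 0.17, edgeR adjusted p = 0.0245). *Tiam1*, *Ablim1* and *Siah1a* passed in all 13 alternative settings, as did *Sdc1* and *Sdc3* above. The count of 9 was 4 without KO2, 5 without KO3, 3 without WT1, 5 without WT2 and 4 without WT3. In those fits the adjusted p reached 0.117 for *Ablim3*, 0.0786 for *Fyn* and 0.0893 for *Siah2*.

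**Figure D4:**
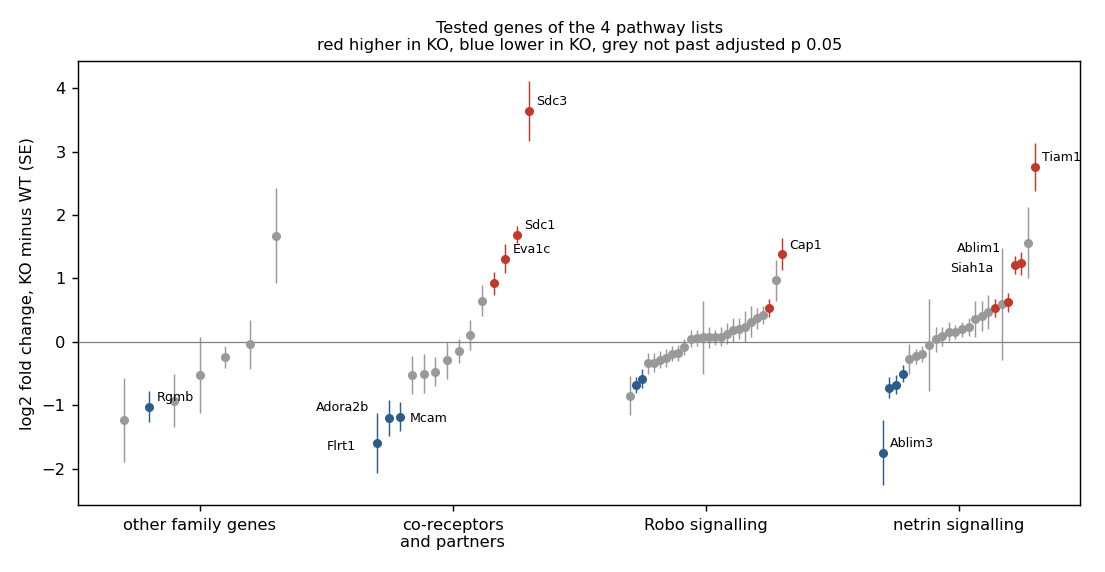
Log2 fold change (KO minus WT, with SE, n = 3 and 3) of every tested gene in 4 lists, with red for genes higher in KO, blue for genes lower and grey for genes that did not pass the edgeR test. Among 71 tested genes 11 are red and 10 blue, with *Sdc3* the highest at 3.64 and *Ablim3* the lowest at -1.75.

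Genes with a pattern like that of *Robo1* over the 6 libraries were sought by Euclidean distance between log2 CPM centred on each gene's mean. The 5 nearest were *Epha7* (distance 1.45), *Pcdh7* (2.24), *Robo2* (2.48), *Nrk* (2.5) and *Xirp2* (2.66), where the median distance of all compared genes was 10. *Epha7*, an ephrin receptor gene, read 2.91, 0 and 0 CPM in KO1 to KO3 and 13.7 to 18.7 CPM in WT. *Pcdh7*, a protocadherin gene, read 17.7, 0.0916 and 0.146 CPM in KO1 to KO3 and 40.3 to 48.5 CPM in WT. All 5 had KO1 above KO2 and KO3 and below WT.

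Nearest to *Lrrn1* were *Trdn* (distance 1), *Wnt10a* (1.15), *Akr1c13* (1.27), *Arhgap29* (1.39) and *Mef2c* (1.42), with a median of 7.09 over all compared genes. *Trdn*, encoding triadin of the muscle calcium release complex, read 177, 9.64 and 7.32 CPM in KO1 to KO3 and 495 to 678 CPM in WT. *Mef2c*, a muscle transcription factor gene, read 17.1, 2.34 and 1.17 CPM in KO1 to KO3 and 80.8 to 189 CPM in WT. *Robo2* lay at distance 2.26 and *Robo1* at 3.25 from *Lrrn1*. These distances rest on 6 libraries and describe likeness of values only.

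On chromosome 16 the tested genes next to the Robo genes were also examined. The lower coordinates of *Robo1* and *Robo2* are 1.23 Mb apart, and the genes are adjacent among tested genes. The next tested gene beyond *Robo2*, *Rbm11*, which encodes an RNA-binding protein and lies 2.93 Mb from *Robo1* by the same measure, had 0, 6 and 0 counts in KO1, KO2 and KO3, against 85, 61 and 73 counts in WT1, WT2 and WT3, with a fitted difference of -5.33 ± 0.86 on the log2 scale. It passed the filter on low counts only through its WT libraries, so no test is given. *Rbm11*, *Hspa13* and *Gbe1* were all examined for their place next to the Robo genes. For *Rbm11* KO1 was not the highest KO library. *Hspa13*, the next, read 3107 to 3825 counts in KO and 3858 to 4319 counts in WT (-0.45 ± 0.12, edgeR adjusted p = 0.0341). On the other side *Gbe1*, 2.35 Mb before *Robo1*, had 741 to 1107 counts in KO and 503 to 781 counts in WT (0.25 ± 0.17, edgeR adjusted p = 0.323). *Robo1*, *Robo2* and *Rbm11* were consecutive among tested genes. The next 10 tested genes beyond *Rbm11*, the last 5.88 Mb from *Robo1*, had fitted differences from -2.07 (*Cxadr*) to -0.16 (*C130023A14Rik*) on the log2 scale, and KO3 lay above the WT mean for *Nrip1* and *C130023A14Rik*, by 0.09 and 0.80. Beyond *Gbe1*, *Cadm2* had 52, 0 and 0 counts in the KO libraries and 23, 32 and 36 counts in the WT libraries. Genomic DNA was not analysed here, and whether the copy number of this region differed between the clones was not tested.

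Around the other guidance genes, the median difference of the 4 nearest tested genes on the log2 scale was -0.13 around *Slit3*, -0.19 around *Lrrn1*, 0.16 around *Ntn4*, -0.57 around *Ntn1*, 0.56 around *Slit2*, 0.78 around *Unc5b*, -0.32 around *Unc5c* and -0.11 around *Neo1*. *Cfap52*, the second tested gene before *Ntn1*, had the largest fall of these neighbours (-2.70 ± 0.75), while *Ntn1* was higher. It was named after its value was seen, so no test is given.

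**Figure D5:**
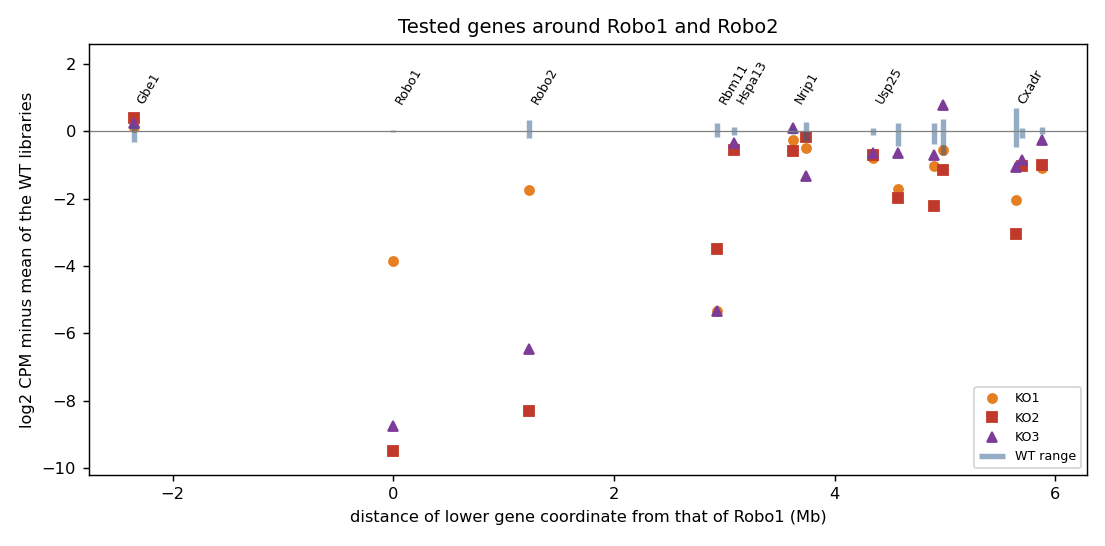
Log2 CPM minus the WT mean for tested genes around *Robo1* and *Robo2*, by distance of each gene's lower coordinate from that of *Robo1* in Mb, for KO1, KO2 and KO3, with blue bars for the range of the 3 WT libraries. *Robo1*, *Robo2* and *Rbm11* lie far below 0 in the KO libraries, and *Gbe1*, 2.35 Mb before *Robo1*, does not.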

How the data were processed

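RNA of differentiating C2C12 cells was sequenced in 3 KO and 3 WT libraries, grouped by the genotype in the labels. The authors deposited raw read counts per gene, merged over the libraries and not normalized, and TPM per gene and library. The submitters' processing notes name FastQC, Trim Galore, STAR, featureCounts, StringTie and Salmon. The strand setting of the counts is not given in the sources used here. The notes name mm9 and the methods GRCm39, but of 45137 genes placed in both, 83.2% had coordinates in the deposited table identical to those of a GRCm38 annotation, so coordinates are given as deposited. Depth was 33605258 to 40558740 counts, and a level of 0 counts allows up to 3 counts.

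Counts were tested with edgeR 4.0.16 (R 4.3.3; TMM, filterByExpr, quasi-likelihood test, two-sided, Benjamini-Hochberg, threshold 0.05) over all 14828 genes that passed the filter, with no covariate. The SE was the log2 fold change divided by the root of the F statistic. TPM were summed per gene identifier and tested with limma 3.58.1 on log2(TPM + 1) where 3 or more libraries reached a TPM of 1. Both, with DESeq2 1.42.0, were tested on simulated data. Alternatives were DESeq2, other scalings and filters, a replicate block, leaving out each library, and for TPM a pseudocount of 0.1. No 2 libraries of the same genotype agreed within sampling noise in a chi-square test.

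The 10 guidance genes and the gene lists were chosen with earlier results of these data known. The text names all 10, from each list up to 3 called genes with the largest rise and up to 3 with the largest fall, the 5 genes nearest to *Robo1* and to *Lrrn1* (mean log2 CPM of at least 0, prior count 2, no predicted genes), and genes a statement turns on. The lists' *Ntn3* was not matched, and *Hjv*, *Mymk* and *Mymx* were matched by identifier. Promoters came from RefSeq, and all 10 genes matched.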

Additional observations from a re-analysis of the deposited data

How the results depend on the processing

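Of 44 counts of called genes under settings other than leaving out a library, 39 stayed within 1.5 times the reported one. Without the filter on low counts edgeR called 8 of the 10 guidance genes in place of 4 and 4 of the other family genes in place of 1, DESeq2 called 3 of those family genes, and limma without a filter on TPM called 1056 genes in place of 2366. The cause was not tested. Leaving out 1 library at a time gave 933 (without WT1) to 4712 (without KO1) called genes in place of 3361, and the count also moved by over 1.5 times without KO3 (2088), WT2 (2100) and WT3 (1288). In TPM the range was 482 to 3134, and in the guidance genes 1 to 8. It was 0 to 2 in the other family genes, 2 to 7 in co-receptors and partners, 0 to 6 in Robo signalling and 3 to 10 in netrin signalling. Fewer libraries were fitted there. The counts of 0 for other family genes came from edgeR without KO3, WT1 or WT3, with 2, 2 and 1 genes at an unadjusted p under 0.05. Those for Robo signalling came from edgeR without WT1 or WT3, with 5 and 6 such genes. *Unc5b* (0.02 on the log2 scale) turned to -0.0036 with DESeq2, -0.0015 without the filter, -0.00091 with the replicate block, -0.01 with limma on TPM, and -0.31, -0.09 and -0.13 without KO3, WT1 and WT3 (range on leaving out a library -0.31 to 0.28), and the cause was not tested. The other 9 guidance genes kept their sign in every setting in which they were tested. Scaling by library totals alone moved the median of all genes from 0.03 to 0.15.

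The labels number the libraries 1 to 3 in both groups. The deviations of same-numbered libraries correlated at 0.14, -0.12 and 0.00, and KO2 correlated best with WT1 and KO3 with WT2, so the numbers were not taken as pairs. With the replicate block edgeR called 2520 genes, 5 guidance genes, 7 co-receptors and partners, 3 Robo signalling and 7 netrin signalling genes, and 0 other family genes (1 at an unadjusted p under 0.05), and limma called 2092 genes in TPM.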
